A study of Homo sapiens with 10 samples.

Results

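Long non-coding RNA (lncRNA) intervals were examined in 22RV1 cells by SLAM-seq, which tells newly made RNA from older RNA. 22RV1 is an established cell line of castration-resistant prostate cancer. An interval is a stretch of the genome in which reads were counted. It was taken as an lncRNA interval where its transcript belongs to a GENCODE v44 gene of type lncRNA. It also had to overlap no interval of a protein-coding gene on its strand. Of small nucleolar RNA host genes, only SNHG genes, GAS5, EPB41L4A-AS1 and ZFAS1 were left out, by name, so hosts under other names may remain. This gave 29615 of the 104653 listed intervals, from 7393 genes. With 1 kept of those that overlap, 24054 of 57160 intervals remained, and 5935 of these held a read in some library while 18119 held none. Of the 29615 intervals, 29563 lie on the plus strand, although GENCODE v44 lists 9576 lncRNA genes on the plus strand and 9290 on the minus strand, so the results cover plus-strand lncRNAs almost alone.

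The study asked how inhibition of SRPK1 and of CDK12 acts on transcription, and 10 libraries were available in 5 groups of 2. Control cells were untreated. The other groups received, over 4 h, SRPIN340 at 20 μM, Endovion at 50 μM, the CDK12 inhibitor THZ531, or THZ531 and Endovion together. SRPIN340 and Endovion are the inhibitors of SRPK1 that the study used. The dose of THZ531 is given as 100 nM in the methods and as 150 nM in the series text. All groups were labelled with 4-thiouridine for the last 10 min, alkylated and sequenced from the 3′ end of polyadenylated RNA, and no unlabelled library was analysed here. A single cell line was used, and the labels do not say that replicates came from separate cultures, so p-values measure only the spread between these libraries.

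Each library held 19314910 to 30046715 reads over all kept intervals, of which 1011571 to 1576037 carried T>C conversions. A read with a conversion is taken as nascent RNA, all reads together as total RNA, and the percent of reads with a conversion is called the labelled share. Markers of the luminal epithelium were present, with KRT18 at 349 to 488 RPM (reads scaled to the depth of the library after TMM scaling, so that RPM and plain shares of reads differ by a factor for each library), while KLK3 was low at 2.63 to 8.19 and TMPRSS2 at 1.03 to 2.79. Of 11 markers of blood, stromal, endothelial and basal cells, CD3E, COL1A2, VWF and KRT5 were at 0 in all libraries, and PTPRC, LYZ, DCN, PECAM1, KRT14 and TP63 had at most 13 reads in any. The collagen gene COL1A1 had 40 to 83 reads in every library (1.59 to 3.47 RPM), and its part in the results was not tested. In bulk libraries of this kind, fewer cells that express an RNA and less of it per cell cannot be told apart.

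LncRNAs are transcripts with little coding potential that are mostly made by RNA polymerase II, and many are spliced and polyadenylated like mRNAs. Many arise beside protein-coding genes, divergently from a shared promoter, antisense to a gene body, or in sense within an intron or just past a gene's end, and they are often short-lived. CDK12 phosphorylates the tail of RNA polymerase II and sustains its elongation, and its inhibition is known for early cleavage and polyadenylation within introns. SRPK1 phosphorylates the SR proteins that take part in splicing.

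A 3′ library detects an RNA at its poly(A) site, which is usually marked by the letters AATAAA. Stretches at or within the last 50 bases of the intervals of lncRNAs described below are shown, on the plus strand of hg38, so that those with and without this signal can be seen. For MALAT1 the interval with most reads was taken. Another of its intervals ends further on, at chr11:65504848, and its last 30 bases hold no AATAAA. Whether the RNA ends at the marked stretch was not tested. Capitals mark AATAAA.
MALAT1: taaataaggAATAAAtaacctcttagacag
OIP5-AS1: tagcAATAAAgcagcatgggctgagaatgc
LINC00963: acttAATAAAatattttattccatcttctc
MIRLET7BHG: tagattcAATAAAgctgttctgaccatgaa
HELLPAR: ctataAATAAAggagaaaaagtgacattaa
ALMS1-IT1: tattAATAAAatagctttaatttggttatt
CHASERR: ggatattcttgAATAAAaattggttgcatt
GABPB1-AS1: tttcagaacataaacgaagagcttaatccc
RBM26-AS1: aaagctactgtgttataaccaatgagaacc
SCARNA9: tatgatggtttctacacttgacctgagctc
They lie at chr11:65503876-65503905, chr15:41306498-41306527, chr9:129512648-129512677, chr22:46113899-46113928, chr12:102402567-102402596, chr2:73459445-73459474, chr15:92899672-92899701, chr15:50372173-50372202, chr13:79424299-79424328 and chr11:93721836-93721865, in that order. The last 3 sequences hold no AATAAA.

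Most lncRNA intervals did not look like detected 3′ ends. AATAAA was searched on the strand of the RNA in the last 50 bases, and it stood in 13.8% of the 24054 kept lncRNA intervals and in 30.4% of all 57160 kept intervals. Among intervals with enough reads to be tested in total RNA it stood in 39.5% of 1563 lncRNA intervals, 57.1% of all 17444 and 60.4% of 15330 protein-coding ones. The tested lncRNA intervals had a median of 45 reads in the control libraries together, against 595.5 for protein-coding intervals, and 68.3% of them ended where the annotated transcript ends. Their genes spanned a median of 5.90 kb, against 38.4 kb for protein-coding genes. In nascent RNA 300 lncRNA intervals could be tested, of 10474 in all. Kept intervals below these read limits cannot be judged at this depth.

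MALAT1, an abundant RNA of nuclear speckles, outweighed all other lncRNA intervals together. In control cells its intervals took 1.06% and 0.992% of all reads, and the other lncRNA intervals took 0.622% and 0.618%. With SRPIN340 the others took 0.632% and 0.604%, and with Endovion 0.584% and 0.586%. With THZ531 they took 0.486% and 0.471%, and with THZ531 and Endovion 0.487% and 0.473%. Both groups with THZ531 thus lay below all control, SRPIN340 and Endovion libraries. The difference from control was -22.9% for THZ531 and -22.5% for the combination, with an exact two-sided permutation p of 0.333 in each, which is the smallest that 2 libraries against 2 allow. MALAT1 itself took 1.20% and 1.29% with THZ531, and 1.46% and 1.24% with the combination, so that all lncRNA intervals together took 1.69% and 1.76% with THZ531, against 1.68% and 1.61% in control cells.

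Total RNA of lncRNA intervals was lower with THZ531 far more often than it was higher. An interval was called where the edgeR quasi-likelihood test gave an adjusted p under 0.05 over all 17444 intervals and the log2 fold change reached 1 in either direction. With THZ531, 58 lncRNA intervals rose and 221 fell, which is 3.71% and 14.1% of 1563, while 7.17% and 7.04% of all tested intervals rose and fell. The median log2 fold change was -0.47 for lncRNA intervals and -0.03 for all. With THZ531 and Endovion 46 rose and 172 fell, or 2.94% and 11%, against 6.89% and 5.44% of all intervals, and the median was -0.42. Both comparisons share the control libraries. Without THZ531 replicate 2 the THZ531 count was 151 (21 up, 130 down), and without control replicate 2 it was 181. The combination's count was 122 without control replicate 2 and 135 without its own replicate 1.

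The difference from protein-coding intervals was present at each level of abundance. With THZ531, the 1120 lncRNA intervals with a mean log2 RPM below 1 had a median log2 fold change of -0.49, the 310 between 1 and 3 had -0.47 and the 133 above 3 had -0.39. Protein-coding intervals had medians of -0.08, -0.05 and 0.01 in the same ranges. The length of the gene was followed in the same way. LncRNA genes that span under 10 kb, 10 to 50 kb and over 50 kb had medians of -0.48, -0.62 and -0.33, and protein-coding genes had -0.14, -0.01 and 0.07.

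**Figure D1:**
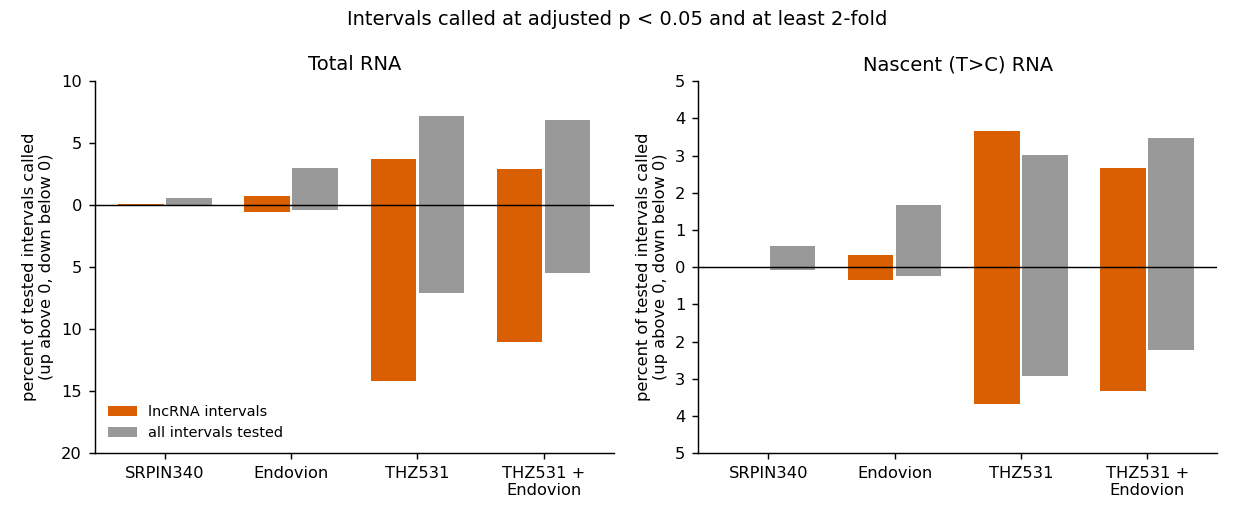
Percent of tested intervals called up (above 0) and down (below 0) in each treatment, for lncRNA intervals and for all intervals tested, in total RNA on the left and nascent RNA on the right. In total RNA with THZ531, 14.1% of lncRNA intervals fell and 3.71% rose, while 7.04% and 7.17% of all tested intervals did.

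The place of an lncRNA beside protein-coding genes went with the size of the difference. Intervals that overlap a coding gene of the other strand were called antisense, and those within 5000 bases past a coding gene's end on the same strand downstream. Those whose gene starts within 1000 bases of a coding gene's start on the other strand were called divergent. The rest, if not inside a coding gene of the same strand, were called apart, although a coding gene may still lie near. Each interval had a single place, tried in the order inside a coding gene, downstream, divergent, antisense. Some divergent or downstream intervals may thus also overlap a coding gene of the other strand. Downstream intervals were lowest with THZ531, with a median log2 fold change of -0.86 over 122, of which 36 fell and 0 rose in the edgeR test. Without the fold and adjustment limits, 53 of the 122 had an unadjusted p under 0.05 in either direction, against 7154 of all 17444 intervals. Antisense intervals had a median of -0.76 over 261, with 39 down and 3 up. Divergent ones had -0.57 over 387, with 59 down and 9 up, and those apart had -0.43 over 487, with 61 down and 11 up.

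Intervals inside coding genes of the same strand did not have such low medians. Of 219 in introns, 28 rose and 20 fell with THZ531, which is 12.8% and 9.13%. Over all tested intervals 7.17% rose and 7.04% fell, and the intronic median was 0.09. Of 87 in exons, 7 rose and 6 fell, or 8.05% and 6.9%, near the share of all intervals, with a median of -0.04. With the combination, 17 intronic intervals rose and 15 fell, or 7.76% and 6.85%, against 6.89% and 5.44% of all intervals. Their median was 0.05, while downstream intervals had -0.69, antisense -0.73, divergent -0.57 and those apart -0.36. Over 14 alternative settings the THZ531 median stayed between -0.97 and -0.74 downstream, between -0.86 and -0.50 antisense, between -0.68 and -0.44 divergent, and between 0.06 and 0.24 in introns. That of the exonic intervals ran from -0.06 to 0.29 and so changed sign. Reads in an intron or just past a gene may also come from the coding gene's own RNA, and their part in these values was not tested.

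**Figure D2:**
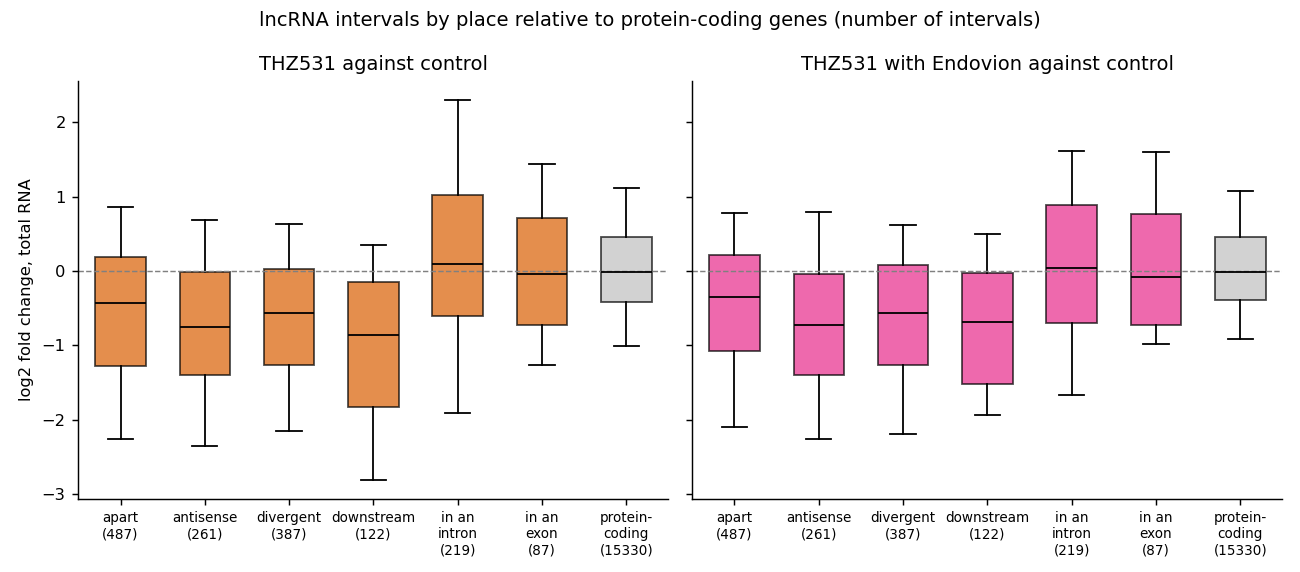
Log2 fold change of total RNA against control for lncRNA intervals in 6 places relative to protein-coding genes and for protein-coding intervals, with THZ531 on the left and THZ531 with Endovion on the right. Boxes span the quartiles with the median, whiskers the 10th to 90th percentile, and the number of intervals stands under each box. The median is lowest downstream of coding genes at -0.86 with THZ531 and is 0.09 in introns.

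The coding genes beside lncRNAs were compared next, where 6.33% of all protein-coding intervals fell and 7.57% rose with THZ531. In 375 divergent pairs with both sides tested, the median log2 fold change with THZ531 was -0.56 for the lncRNA and 0.04 for the coding gene. Of 56 divergent lncRNAs that fell in these pairs, the coding partner fell in 3 and rose in 5. Of 33 antisense lncRNAs that fell, the partner fell in 2 and rose in 2. Of 35 that fell downstream of a coding gene, the partner fell in 5 and rose in 1. Across the pairs, Pearson's r between the 2 fold changes was -0.03 for divergent, -0.07 for antisense, 0.20 for downstream, 0.13 for intronic and 0.45 for exonic pairs. The pairs share libraries and scaling, so these values are descriptions.

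MILIP, a MYC-induced lncRNA that acts on p53, lies at chr17:81929476-81930753, divergent to MAFG, which encodes a small MAF transcription factor. It stood at 13.6 and 15.7 RPM in control cells, 12 and 9.85 with SRPIN340, 8.16 and 7.10 with Endovion, 3.24 and 1.5 with THZ531, and 1.61 and 0.936 with the combination. All libraries with THZ531 lay below all others. Its log2 fold change was -2.58 ± 0.31 (SE) with THZ531 and -3.50 ± 0.33 with the combination (edgeR adjusted p of 1.3e-05 and 3.3e-06), and both were falls past the limits. MAFG rose by 1.15 and 1.32 in the same comparisons. RBM26-AS1, divergent to the RNA-binding protein gene RBM26, went from 10.8 and 10.2 to 2.69 and 2.04 with THZ531, a fall of 2.13 ± 0.24, and to 3.95 and 4.11 with the combination. With SRPIN340 and Endovion it lay at 11.6 to 17.3, above both controls.

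LncRNAs with most reads after MALAT1 differed in their response. OIP5-AS1, a conserved RNA that carries a site for miR-7, lies at chr15:41298041-41306534. It stood at 283 and 292 RPM in control cells, 292 and 299 with SRPIN340, 293 and 305 with Endovion, 154 and 163 with THZ531, and 202 and 191 with the combination. The groups with THZ531 did not overlap the others. Its log2 fold change in total RNA was -0.86 ± 0.10 with THZ531 (edgeR adjusted p 1.5e-05) and -0.55 ± 0.10 with the combination, both under the fold limit.

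GABPB1-AS1 is divergent to GABPB1, which encodes a subunit of the GA-binding protein. Its interval, chr15:50356100-50372202, held 109 and 122 RPM in control cells, 135 and 123 with SRPIN340, 143 and 155 with Endovion, 40.5 and 36.9 with THZ531, and 85.2 and 47.2 with the combination. It fell by 1.58 ± 0.22 with THZ531 (edgeR adjusted p 0.00034). DANCR, an lncRNA linked to the upkeep of undifferentiated cells, had 84.1 and 81.0 in control cells, 82.7 and 80.3 with SRPIN340, 85.2 and 92.1 with Endovion, 84.7 and 78.1 with THZ531, and 87.8 and 87.2 with the combination. The Endovion and combination libraries lay slightly above both controls, and the SRPIN340 and THZ531 libraries overlapped them. Its log2 fold change with THZ531 was -0.02 ± 0.11. MALAT1 had 10293 and 9912 RPM in control cells, 12608 and 10368 with SRPIN340, 11774 and 10435 with Endovion, 12151 and 13436 with THZ531, and 15386 and 12376 with the combination. Its difference with the combination was 0.46 ± 0.13 (adjusted p 0.013), under the fold limit.

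LINC00963, described in the progression of prostate cancer to castration resistance, lies at chr9:129503323-129512679. Its level was 65.5 and 68.9 RPM in control cells, 69.1 and 72.4 with SRPIN340, 77.5 and 65.0 with Endovion, 30.6 and 23.2 with THZ531, and 40.1 and 26.4 with the combination. It fell by 1.32 ± 0.18 with THZ531 (edgeR adjusted p 7.5e-05). With the combination it fell by 1.01 ± 0.18, just past the fold limit. The log2 fold change was -0.74 with the combination's replicate 2 left out, -0.97 with control replicate 2 left out and -0.99 with THZ531 replicate 2 left out, all short of the limit.

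HELLPAR, a very long lncRNA linked to a disorder of pregnancy, has an interval of 205012 bases at chr12:102197585-102402596, just past the end of PARPBP. It held 72.5 and 81.5 RPM in control cells, 81.8 and 62.4 with SRPIN340, 68.7 and 70.5 with Endovion, 15.0 and 13.1 with THZ531, and 23.3 and 19.8 with the combination. The 4 libraries with THZ531 lay far below the rest. It fell by 2.45 ± 0.16 with THZ531 (adjusted p 2.8e-08), and its log2 fold change with the combination was -1.84 (adjusted p 1.0e-06).

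MIRLET7BHG, at chr22:46109764-46113928, holds the hairpins of let-7a and let-7b, microRNAs known for restraint of growth. Their mature sequences (RefSeq, GRCh38.p14), with the shared seed at bases 2 to 8 in capitals, are shown because both lie within the RNA counted here.
hsa-let-7a-5p: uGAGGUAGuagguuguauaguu
hsa-let-7b-5p: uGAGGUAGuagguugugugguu
They lie at chr22:46112752-46112773 and chr22:46113691-46113712, inside the interval. The host had 16.9 and 22.8 RPM in control cells, 16 and 16.3 with SRPIN340, 17.2 and 10.3 with Endovion, 5.13 and 3.12 with THZ531, and 3.13 and 3.59 with the combination. It fell past the limits in both, with log2 fold changes of -2.24 ± 0.27 with THZ531 and -2.57 ± 0.28 with the combination (edgeR adjusted p of 2.3e-05 and 1.6e-05). The mature microRNAs themselves are not measured by these libraries.

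**Figure D3:**
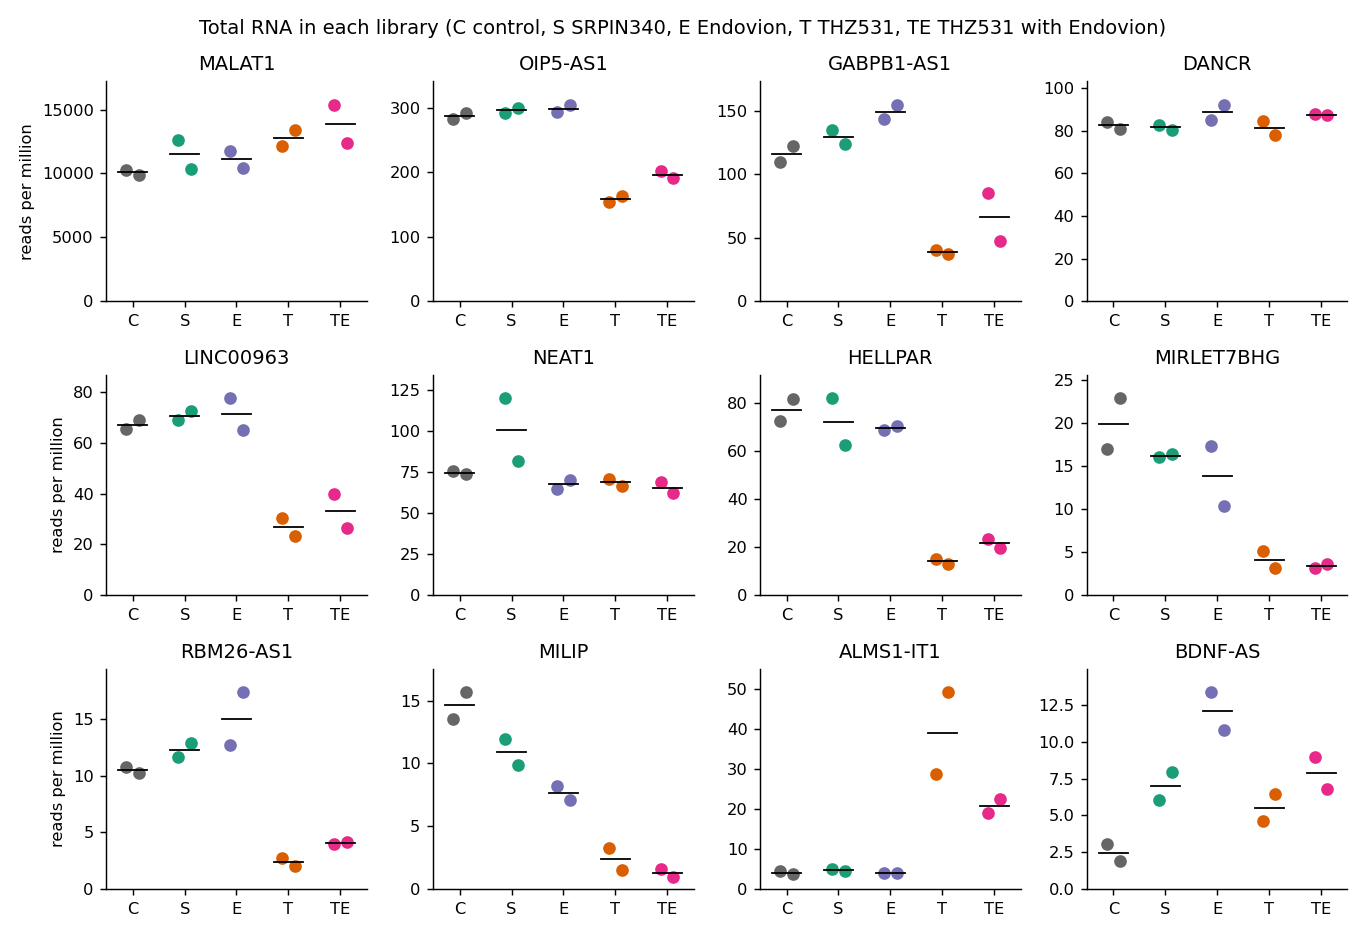
Total RNA in reads scaled to library depth (RPM) for 12 lncRNA intervals in each library, with points for the 2 replicates of a group and a line at their mean. OIP5-AS1, LINC00963, HELLPAR, MIRLET7BHG, RBM26-AS1 and MILIP are lower in all 4 libraries with THZ531, while ALMS1-IT1 is higher.

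Of the 58 lncRNA intervals that rose with THZ531, 28 lay in introns of a coding gene. ALMS1-IT1 lies in an intron of ALMS1, a gene for a centrosome protein, at chr2:73457941-73459482. It had 4.58 and 3.61 RPM in control cells, 4.95 and 4.53 with SRPIN340, 3.95 and 4.04 with Endovion, 28.7 and 49.2 with THZ531, and 19 and 22.5 with the combination. It rose by 3.24 ± 0.25 with THZ531 and by 2.33 ± 0.24 with the combination (edgeR adjusted p of 1.3e-07 and 6.3e-06). ALMS1 itself had a log2 fold change of -0.43 with THZ531 (adjusted p 0.22).

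ENSG00000261270 lies in an intron of HERPUD1, a gene of the endoplasmic reticulum stress response, at chr16:56940278-56940401. It had 3.46 and 4.00 RPM in control cells, 3.84 and 3.55 with SRPIN340, 1.61 and 3.60 with Endovion, 24.9 and 25.5 with THZ531, and 17.0 and 23.8 with the combination. It rose by 2.75 ± 0.28 with THZ531, while HERPUD1 differed by -0.66 (adjusted p 0.00088). These 3 more were chosen after their values were seen. ENSG00000273284 in ANKRD12 went from 19 and 7 reads in control cells to 216 and 169 with THZ531, ENSG00000276853 in LEMD3 from 60 and 64 to 256 and 274, and ENSG00000270116 in TTC3 from 1 and 0 to 52 and 51.

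The 28 intronic intervals that rose with THZ531 lay in 26 host genes, and in the 28 pairs no host rose and 1 fell, against 7.57% and 6.33% of all protein-coding intervals, a difference too small to judge over 28 pairs. The hosts had a median span of 101 kb. It was 89.1 kb for the 20 intronic intervals that fell and 73.5 kb for the 171 not called. The intervals began at a median of 40.7%, 44.4% and 42.6% of the way along the host, in that order. By place along the host, 15.4% of 52 intervals in the first 20 percent rose, 12.3% of 73 from 20 to 50 percent, and 11.8% of 93 beyond. Intronic lncRNA intervals were followed by an A-rich stretch, at least 12 A in the next 20 bases of the genome, in 15.5% of cases, against 6.65% of all tested lncRNA intervals. Priming within the RNA at such a stretch can give reads in a 3′ library, and its part here was not tested. Of all lncRNA intervals that rose with THZ531, 8.62% had such a stretch, as did 9.5% of those that fell and 6.07% of those not called.

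SRPIN340 and Endovion left few lncRNA intervals past the limits in total RNA. With SRPIN340 1 rose and 0 fell (edgeR), against 0.59% up and 0.0229% down over all intervals, and DESeq2 called 7. An edgeR unadjusted p under 0.05 was found in 110 of 1563, against 3219 of all 17444. Without control replicate 1 the count was 20. With Endovion 11 rose and 9 fell, 0.704% and 0.576% of 1563, against 3% and 0.407% of all, and the median was -0.14 against -0.02. That count was 3 without Endovion replicate 1, 4 without Endovion replicate 2, 5 without control replicate 2 and 47 without control replicate 1.

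BDNF-AS, the antisense RNA of the gene for brain-derived neurotrophic factor, was the interval called with SRPIN340. It is divergent to LIN7C and had 3.03 and 1.87 RPM in control cells, 6.06 and 7.95 with SRPIN340, 13.4 and 10.8 with Endovion, 4.59 and 6.45 with THZ531, and 8.94 and 6.76 with the combination. All treated libraries lay above both controls. It rose by 1.5 ± 0.29 with SRPIN340 and by 2.29 ± 0.29 with Endovion (edgeR adjusted p of 0.025 and 0.00069). The SRPIN340 call was lost without control replicate 2 (log2 fold change 1.23) or SRPIN340 replicate 2 (1.29). CHROMR, an lncRNA tied to cholesterol balance, rose by 1.85 ± 0.34 with Endovion (adjusted p 0.0038), from 1.44 and 1.13 RPM in control cells to 4.83 and 4.48. It had 2.66 and 2.98 with SRPIN340, 1.97 and 3.44 with THZ531, and 4.12 and 4.37 with the combination.

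Nascent RNA gave fewer calls. With SRPIN340 0 of 300 were called (edgeR), against 0.582% up and 0.0668% down over all 10474 intervals. DESeq2 called 0 as well, and 20 had an edgeR unadjusted p under 0.05, against 1094 of all 10474. At an unadjusted p with the fold limit, the study's own limits, 9 rose and 7 fell, or 3% and 2.33%, against 3.47% and 1.39% of all intervals. With Endovion 1 rose and 1 fell, against 1.68% and 0.248% of all. With THZ531 11 rose and 11 fell, or 3.67% each, against 3.03% and 2.92%, and the median was -0.21 against -0.02 for all. At the study's own limits 22 rose and 35 fell with THZ531, or 7.33% and 11.7%, against 6.20% and 6.73% of all. With the combination 8 rose and 10 fell, or 2.67% and 3.33%, against 3.48% and 2.23%, and at the study's own limits 21 rose and 31 fell, or 7% and 10.3%, against 6.69% and 5.31%. The THZ531 count of 22 was 10 and 13 when replicate 2 or replicate 1 of THZ531 was left out, and 14 when control replicate 2 was, and the combination's 18 became 9 without its replicate 1 and 11 without control replicate 2.

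Of the 11 lncRNA intervals that fell in nascent RNA with THZ531, 8 also fell in total RNA. HELLPAR held 170 and 101 T>C reads without treatment, 19 and 15 with THZ531 and 19 and 15 with the combination, with log2 fold changes of -2.80 ± 0.35 and -2.62 ± 0.35 (edgeR adjusted p of 1.6e-08 and 8.0e-08). LINC00963 had 151 and 154, then 57 and 26 with THZ531 and 52 and 37 with the combination, with log2 fold changes of -1.77 ± 0.28 and -1.45 ± 0.28. OIP5-AS1 went from 808 and 719 to 411 and 251 with THZ531, a log2 fold change of -1.07 ± 0.16 (adjusted p 2.2e-06), and without control replicate 2 its log2 fold change of -0.99 lay just under the fold limit. MIRLET7BHG went from 35 and 62 to 11 and 1, a log2 fold change of -2.95 ± 0.61 (adjusted p 0.00059) that lost its call without THZ531 replicate 2 (-2.31, adjusted p 0.055).

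With THZ531, 11 of 300 lncRNA intervals rose in nascent RNA, or 3.67%, near the 3.03% of all intervals. Only some of these are described here. ENSG00000261270 in HERPUD1 held 24 and 17 T>C reads without treatment, 24 and 23 with SRPIN340, 3 and 6 with Endovion, 117 and 75 with THZ531, and 72 and 72 with the combination. It rose by 2.38 ± 0.39 with THZ531 and by 2.17 ± 0.39 with the combination (edgeR adjusted p of 1.2e-05 and 6.4e-05). With Endovion its log2 fold change was -1.88 ± 0.56 with an adjusted p of 0.046, which rose to between 0.053 and 0.51 when any 1 of the 8 libraries outside the SRPIN340 group was left out. LINC02987 had 4 and 2 without treatment, 9 and 15 with SRPIN340, 22 and 9 with Endovion, 36 and 28 with THZ531, and 48 and 24 with the combination. It rose by 3.54 ± 0.69 with THZ531, and summed over the intervals of its gene the nascent log2 fold change was 1.04 (adjusted p 0.065). In total RNA it was 1.67 for the interval and -0.02 for the gene.

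Among the 300 intervals tested in both, the fold changes with THZ531 in nascent and total RNA had the same sign in 234, with a Pearson's r of 0.69. The T>C reads are part of all reads, so the 2 measures are not independent. With THZ531, 11 fell in nascent RNA and 65 in total RNA, 8 of them in both, which is 72.7% of the first and 12.3% of the second list. Of those that rose, 11 in nascent and 19 in total RNA, 3 were shared, or 27.3% and 15.8%. With the combination the signs were the same in 220 and r was 0.65. T>C reads are far fewer than all reads, so the shorter nascent list does not show that fewer lncRNAs differed in nascent RNA.

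**Figure D4:**
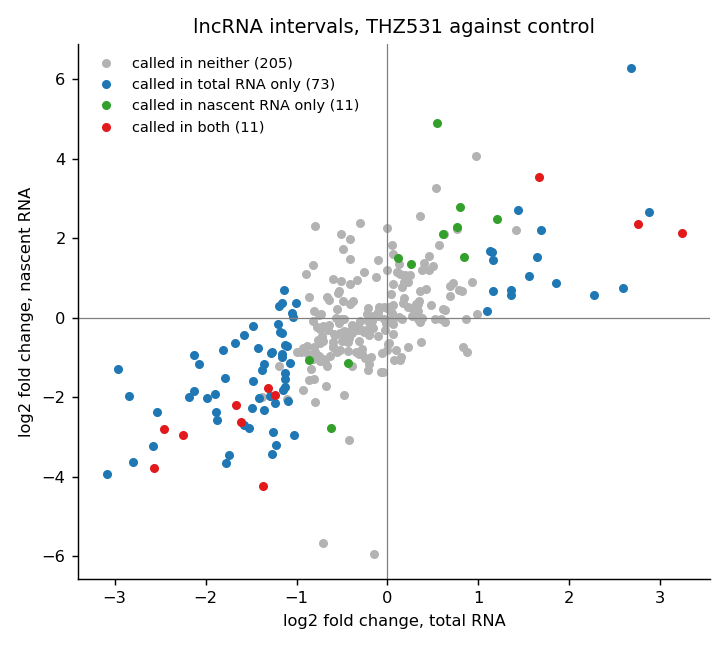
Log2 fold change with THZ531 in nascent RNA against that in total RNA for the 300 lncRNA intervals tested in both, coloured by the measure in which they were called. The points run from lower left to upper right (r of 0.69), and 65 intervals fell in total RNA against 11 in nascent RNA.

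The labelled share of lncRNA intervals other than MALAT1 was above that of protein-coding intervals in every library. It was 6.99% and 7.07% in control cells, 6.88% and 6.38% with SRPIN340, 6.40% and 6.12% with Endovion, 7.67% and 7.66% with THZ531, and 6.98% and 6.92% with the combination. Protein-coding intervals lay between 5.07% and 5.71%. The difference was 1.57 percentage points on average, from 1.0 to 2.47, and lncRNA intervals were higher in 10 of 10 libraries (exact two-sided permutation test of signs, p = 0.00195, the smallest that 10 libraries allow). Both pools hold the same intervals of the same cell line in every library. The p therefore speaks only for the steadiness of this difference over libraries, not for lncRNAs as a class. MALAT1 stood lower, at 4.38% and 4.54% in control cells. The share with THZ531 lay above both controls, by 0.632 percentage points, with an exact permutation p of 0.333, the smallest possible.

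Single lncRNAs covered a wide range of shares. Among 470 intervals with at least 100 reads in control cells, the median was 5.17% with quartiles of 2.91% and 8.69%, and 3.40% of them were above 20%. In 11544 protein-coding intervals the median was 4.81% and 2.31% were above 20%. Intronic intervals had a median of 7.28%, those downstream of coding genes 6.54%, divergent 5.24%, apart 4.66%, antisense 4.56% and exonic 2.56%. No unlabelled library was used here, so a mismatch in the genome of these cells, which gives T>C reads without label, cannot be told apart from labelling at a single interval. Among the 123 intervals with at least 200 reads in each control library, the highest shares were those of LINC00467 at 26.0% and of an interval of ENSG00000265794 inside ZNF207 at 26.7%.

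**Figure D5:**
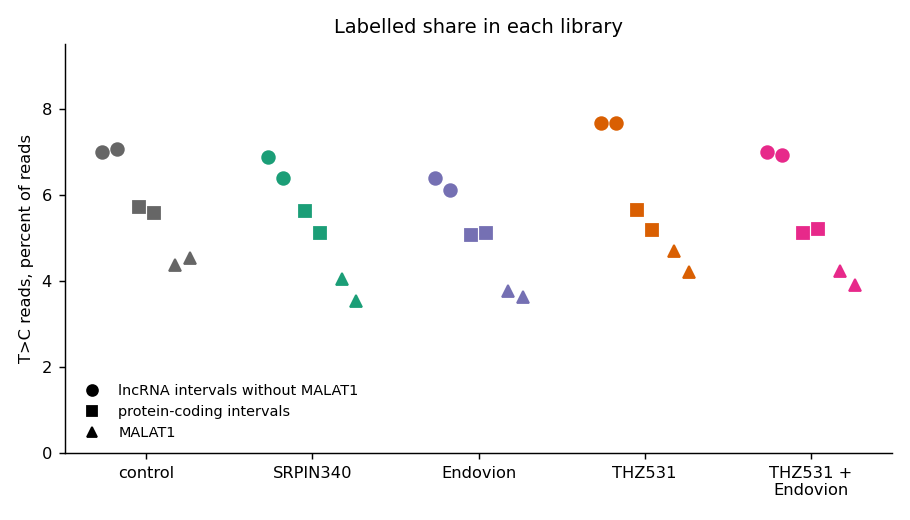
Labelled share, the percent of reads with T>C conversions, in each library for lncRNA intervals without MALAT1, MALAT1 and protein-coding intervals. LncRNA intervals without MALAT1 lie between 6.12% and 7.67%, above protein-coding intervals in every library.

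The labelled share was tested by interval with edgeR as the interaction of treatment and read class, called at an adjusted p under 0.05. With SRPIN340 1 lncRNA interval rose and 0 fell, against 0.0477% up and 0.105% down over all 10474. With Endovion 1 rose and 0 fell, against 0.0573% and 0.277%. With THZ531 1 rose and 0 fell, against 0.0764% and 0.143%. With the combination 2 rose and 1 fell, against 0.258% and 0.735%. The numbers with an unadjusted p under 0.05 were 15, 18, 34 and 38 of 300, against 842, 957, 1027 and 1237 of all 10474.

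SCARNA9, a small Cajal body RNA that guides modification of the spliceosomal RNAs, held 3 of these calls. It lies in an intron of CEP295 at chr11:93721513-93721865. Its labelled share was 1.45% and 1.43% in control cells, 4.86% and 4.59% with SRPIN340, 4.64% and 3.11% with Endovion, 4.35% and 3.09% with THZ531, and 4.96% and 4.70% with the combination. Every treated library lay above both controls. Adjusted p was 0.020, 0.045, 0.071 and 0.0033 in that order, and these calls did not hold without single libraries, with 0.31 for SRPIN340 without SRPIN340 replicate 2, 0.63 for Endovion without Endovion replicate 1, and 0.073 for the combination without its replicate 1. Its T>C reads were 19 and 17 of 1313 and 1192 reads in control cells.

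GABPB1-AS1 was the interval called with THZ531. Its share was 4.91% and 5.49% in control cells, 4.36% and 5.72% with SRPIN340, 5.94% and 4.14% with Endovion, 11% and 12.1% with THZ531, and 6.22% and 6.72% with the combination. Its T>C reads were 149 and 154 in control cells and 123 and 83 with THZ531, a log2 fold change of -0.42 (edgeR adjusted p 0.34), while its total RNA fell. The rise in share of 1.32 ± 0.24 (adjusted p 0.0047) had an adjusted p of 0.056 without THZ531 replicate 1 and of 0.25 without THZ531 replicate 2. CHASERR, an lncRNA that represses its neighbour CHD2, fell in share with the combination, from 16% and 19.1% to 10.2% and 10.3% (edgeR adjusted p 0.0065). Its call was lost without control replicate 2 (log2 change in share -0.60) and without replicate 1 (-0.81) or 2 (-0.74) of the combination. Its total RNA differed by 0.38 ± 0.12 with THZ531 while that of CHD2, a chromatin remodeller, differed by -1.07.

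An upstream interval of JPX, an X-linked lncRNA, rose in share with the combination, from 1.90% and 0.882% to 3.77% and 5.14% (edgeR adjusted p 0.028). The call was lost summed to genes (log2 change in share 0.24, edgeR adjusted p 0.76). It was also lost without control replicate 2 (1.39) and without replicate 1 (2.01) or 2 (1.62) of the combination. A second JPX interval, named after its values were seen, fell by 1.14 ± 0.37 in nascent RNA with THZ531 (edgeR adjusted p 0.041). It went from 88 and 80 converted reads to 50 and 21. That call was lost by DESeq2 (adjusted p 0.10), in the edgeR 2-group fit (0.061) and summed to genes (log2 fold change -0.39, edgeR adjusted p 0.45). It was also lost with any 1 control or THZ531 library left out, at log2 fold changes from -1.50 to -0.89.

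Lists of known lncRNAs were followed in total RNA. Of 26 RNAs of nuclear architecture and chromatin, 13 had tested intervals, 32 in all, and with THZ531 0 rose and 2 fell, HOXA-AS2 and LINC00667, around a median of -0.25. NEAT1, the scaffold of paraspeckles, was not called, at 75.8 and 73.6 RPM in control cells, 120 and 81.7 with SRPIN340, 64.6 and 70.3 with Endovion, 70.9 and 66.6 with THZ531, and 69.1 and 62.1 with the combination. The interval of its short form, chr11:65423295-65426499, lies inside and held 74.5% and 77.8% of these reads in control cells, 75.6% and 78.9% with SRPIN340, 74.4% and 73.8% with Endovion, 92.2% and 94.4% with THZ531, and 88.2% and 92.4% with the combination. The reads outside the short form were 536 and 375 in control cells, 793 and 545 with SRPIN340, 432 and 374 with Endovion, 152 and 70 with THZ531, and 187 and 91 with the combination. They were fewest in the libraries with THZ531, and this difference was seen after the values and was not tested. The last 30 bases of the long interval hold no AATAAA. Reads outside the short form therefore need not measure a long form, and their source was not tested. Of 40 prostate cancer lncRNAs, 11 had 33 tested intervals, of which 1 rose and 5 fell with a median of -0.36. Those that fell were 3 intervals of LINC00963 and 1 each of PCAT7 and PCAT14, and the 1 that rose was a short interval of DANCR with 24 and 6 reads in control cells.

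Of 39 lncRNAs of p53, stress and hypoxia, 6 intervals were tested and 2 fell, NKILA and WT1-AS, with a median of -0.28. Of 34 microRNA hosts, 11 had 19 intervals, of which 1 rose, in MIR17HG, and 3 fell, in MIR200CHG, MIR9-3HG and MIRLET7BHG, with a median of -0.12. Of 37 RNAs antisense or divergent to splicing, elongation and CDK genes, 6 had 10 intervals, of which 3 fell, 2 in RBM26-AS1 and 1 in PAXBP1-AS1, with a median of -1.60. Without THZ531 replicate 2, the edgeR adjusted p of HOXA-AS2, LINC00667, PCAT7, the short DANCR interval, NKILA, WT1-AS, MIR200CHG, MIR9-3HG and PAXBP1-AS1 ran from 0.063 to 0.17. Over the 5 lists, 2 of 100 intervals rose and 15 fell with THZ531, where 7.17% and 7.04% of all intervals and 3.71% and 14.1% of lncRNA intervals did, so the lists were near the share of lncRNA intervals as a whole. With the combination 2 rose and 9 fell, against 6.89% and 5.44% of all. With SRPIN340 and Endovion edgeR called 0 of 100, and DESeq2 called 0 and 1. The edgeR unadjusted p was under 0.05 in 8 and 11, against 3219 and 4555 of all 17444 intervals.

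An lncRNA of fewer reads, ENSG00000261659, antisense to FBXL16 at chr16:692305-692554, had 14.3 and 14.5 RPM in control cells, 10.1 and 10 with SRPIN340, 7.70 and 6.06 with Endovion, 7.10 and 5.05 with THZ531, and 4.38 and 4.01 with the combination. All treated libraries lay below both controls. Its log2 fold change in total RNA was -1.06 with Endovion, -1.23 with THZ531 and -1.78 with the combination (edgeR adjusted p of 0.0079, 0.0006 and 4.2e-05). The Endovion call was lost without control replicate 2 (adjusted p 0.051) or Endovion replicate 2 (0.093), and without THZ531 replicate 2 the THZ531 value of -0.97 missed the fold limit. BTG1-DT, divergent to the growth-restraining gene BTG1, held 7 and 7 converted reads without treatment, 9 and 11 with SRPIN340, 9 and 9 with Endovion, 38 and 25 with THZ531, and 10 and 6 with the combination. Its nascent rise of 2.29 ± 0.70 with THZ531 (adjusted p 0.028) was lost when any 1 control or THZ531 library was left out, with an adjusted p of 0.094 to 0.14.

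PCAT14, a transcript associated with prostate cancer, had 7.80 and 7.27 RPM in control cells, 5.06 and 4.78 with SRPIN340, 4.02 and 3.75 with Endovion, 3.38 and 2.90 with THZ531, and 3.17 and 3.28 with the combination. Every treated library lay below both controls, and its log2 fold change was -1.25 with THZ531 and -1.22 with the combination (edgeR adjusted p of 0.0014 and 0.002). NKILA, which binds NF-kappaB, had 103 and 67 reads in control cells, 55 and 48 with SRPIN340, 39 and 15 with Endovion, 36 and 15 with THZ531, and 19 and 4 with the combination. MCM3AP-AS1, named after its values were seen, had 1 interval at 4.98 and 4.61 RPM in control cells and at 0.983 and 0.591 with THZ531, a log2 fold change of -2.57 (adjusted p 0.00012).

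The addition of Endovion to THZ531 was compared with THZ531 alone. In total RNA 126 lncRNA intervals had an unadjusted p under 0.05 (edgeR), against 1975 of all 17444. Past the limits 1 lncRNA interval rose and 0 fell, against 0.183% and 0.0573% of all intervals. It was HEXD-IT1, named after its values were seen, in an intron of HEXD, with 104 and 122 reads in control cells, 21 and 15 with THZ531 and 54 and 48 with the combination, a rise of 1.62 ± 0.35 over THZ531 (adjusted p 0.039). In nascent RNA 0 of 300 were called (edgeR), while 0.105% and 0.0573% of all intervals rose and fell. An unadjusted p under 0.05 was found in 20, against 831 of all 10474. The interaction, the combination less the sum of both single treatments, called 0 in nascent RNA, against 0.0286% up and 0.334% down of all intervals. Its unadjusted p was under 0.05 in 22, against 808 of all 10474.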

How the data were processed

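The deposited tables hold counts per interval and library, of all reads and of reads with T>C conversions, which the authors made from single-end 3′ reads with SLAM-DUNK on hg38. The submitters' processing notes also name Bowtie2 2.3.4.1, SAMtools 1.6 and DESeq2 1.38.2. Whether the counts were collapsed by molecular identifier, how many conversions a read needed and whether variants were masked are not given in the sources used here. Intervals were matched to GENCODE v44 by transcript, and of overlapping intervals 1 was kept, so that 57160 intervals of 31003 genes remained. No interval held reads marked as multimapping.

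Counts were tested with edgeR 4.0.16 (R 4.3.3, quasi-likelihood test, TMM scaling, low counts filtered), with all 5 groups in 1 fit and Benjamini-Hochberg adjustment over all tested intervals. The labelled share was tested as an interaction of treatment and read class. DESeq2 1.42.0, other filters and scalings, a 2-group fit, sums per gene and each library left out were alternatives. Levels in RPM are counts scaled to the TMM-adjusted library size, and shares of reads use the plain totals. Calculations were checked on simulated counts with known changes in the THZ531 group, placed among all tested intervals. Of changes with a log2 size of 1, 29.5% in nascent RNA and 59.4% in total RNA had an edgeR adjusted p under 0.05. Of those with a log2 size of 2, 67.7% and 78% did, so many true changes of this size can be missed. The lncRNAs named were those of 5 lists, the 10 intervals with most control reads, in each comparison with control the 4 intervals of smallest p each way in nascent RNA (at least 20 T>C reads in the higher group) and 2 each way in total RNA and in share (at least 50 reads) among those called, and the 4 highest and 4 lowest control shares (at least 200 reads per control library). Intervals picked by p also had to have both treated libraries beyond both control libraries, so that separation in them is not further support. Members and lists were chosen with earlier results of these data known. Replicate differences of equal number correlated by -0.129 to 0.166 between groups in all reads and by -0.0709 to 0.0607 in T>C reads. The labels do not say whether replicates of equal number were handled together, and these low correlations cannot settle it. The main fit used no pairing. The standard errors come from the edgeR quasi-likelihood test and, like its p-values, measure only the spread between these libraries. SRPIN340 with THZ531 was not analysed here.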

Additional observations from a re-analysis of the deposited data

How the results depend on the processing

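Counts of lncRNA intervals called depended most on single libraries, and the cause was not tested. In nascent RNA, SRPIN340 gave 0 and 3 with overlapping intervals kept, and 0 to 3 with 1 library left out. Endovion gave 2, with 0 by DESeq2 and by the 2-group fit, 1 without the low-count filter, summed to genes, without intervals in or near coding genes and without those over 20% T>C, and 0 to 2 with 1 library left out. THZ531 gave 22, with 14 by DESeq2, 14 without intervals in or near coding genes, and 10 to 24 with 1 library left out. The combination gave 18, with 11 by DESeq2 and 9 to 18 with 1 library left out. In total RNA, SRPIN340 gave 1, with 7 by DESeq2, 18 without the filter, 2 summed to genes, 0 by the 2-group fit and 0 to 20 with 1 library left out. Endovion gave 20, with 31 without the filter and 3 to 47 with 1 library left out. THZ531 gave 279, with 182 without intervals in or near coding genes and 151 to 285 with 1 library left out, and the combination gave 218, with 122 to 223. In the labelled share, SRPIN340 and Endovion gave 1 each, with 0 by the 2-group fit and without intervals in or near coding genes. Endovion also gave 2 without the filter and 0 without intervals over 20% T>C. The combination gave 3, with 1 without intervals in or near coding genes. With 1 library left out, the share gave 0 to 1 for the single treatments and 0 to 4 for the combination.

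The percent of reads on all lncRNA intervals, treated less control, was 0.183 for SRPIN340 (0.0558 to 0.310 with 1 library left out), 0.0752 for Endovion (0.00713 to 0.143), 0.0779 for THZ531 (0.0433 to 0.112) and 0.184 for the combination (0.0670 to 0.300). Without the 2 most abundant intervals it turned to -0.00446, -0.0378, -0.129 and -0.130, since MALAT1 is then left out. In T>C reads it was 0.0555 (-0.0552 to 0.166), -0.0352 (-0.131 to 0.0610), 0.119 (0.0900 to 0.148) and 0.149 (-0.0253 to 0.323), and without those intervals it was -0.0651 for THZ531 and -0.0955 for the combination. With the replicate number as a block the counts were 0, 2, 19 and 18 in nascent RNA, 1, 15, 264 and 210 in total RNA, and 1, 1, 1 and 3 in the share, so the block moved no count by over 1.5 times. Of 1692 values for 99 called pairs of a named lncRNA and a comparison, 1521 kept direction and call, 169 lost the call and 2 turned, both LINC02987 in total RNA summed to genes (-0.024 with THZ531, -0.19 with the combination). Low read numbers limit most lncRNA intervals.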
